A study of Rattus norvegicus with 16 samples.

Results

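Carboxylesterases are serine hydrolases of the endoplasmic reticulum that cleave ester, amide and thioester bonds in drugs, other foreign compounds and lipids. In rodents the Ces1 genes lie in a tandem cluster and are best known from liver, lung and adipose tissue, where Ces1 enzymes take part in triglyceride turnover, while Ces2 enzymes are the forms associated with the intestine and with the conversion of prodrugs there. The genes considered were 9 members of the family in the rat: Ces1c, Ces1d, Ces1e, Ces1f, Ces2a, Ces2c, Ces2e, Ces2g and Ces2h. They were chosen by symbol with the DSS falls of Ces1e and Ces1d in these arrays already known, so the DSS contrast selected on the measured values and the members are described in it without a test. Of the 9, 8 had a probe and Ces2a had none; these 8 stood among 15159 named genes measured by 30367 probes. Ces1c and Ces1e had 2 probes each and the other members 1.

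The arrays held RNA of normal distal colon from 16 male rats, 4 in each of 4 groups, all sampled at 97 days of age. All were F1 rats of the ACI and F344 strains, either wild type or Pirc/+, which is heterozygous for a truncating allele of Apc, the tumor suppressor that restrains Wnt signalling, in every cell of the animal. Untreated rats of each genotype stood beside rats given 4% dextran sodium sulfate (DSS), which injures and inflames the colon, in the drinking water in 2 courses, on days 40 to 47 and again on days 54 to 61 of life; sampling came 36 days after the second course. The strain label of the wild type rats also read (ACIxF344)F1-Pirc, while their genotype label read wild type. Values are log2 of the processed signal over the 75th percentile of the array, so that 0 is as bright as that percentile and each step of 1 is a factor of 2. A gene counted as called where limma, fitted over all probes, gave a Benjamini-Hochberg adjusted p not above 0.05 and the 2 signals were a factor of 2 or more apart.

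Each group occupied 1 array column of the slides, so array column and group cannot be told apart. The slides, 2 in number, each held 2 rats of every group. The 75th percentile of the processed signal ran from 875 in Pirc DSS rat 16 to 2194, between 71.1% and 80.3% of the spots were well above background, and 0 spots were saturated. All 14 listed epithelial markers and all 25 measured markers of absorptive colonocytes were well above background on every array. Of the 12 hepatocyte markers, 2 were so on every array, Cyp2c11 among them, while Alb, Ttr, Fga, Fgb, Fgg and Hpx were so on 0 arrays.

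The upstream sequences of the 4 measured Ces1 genes are shown because these genes were lower together after DSS and share a stretch of sequence, and those of Ces2c and Ces2g because they belong to the member that differed between genotypes and to the Ces2 member chosen for its bright probe. Each runs from 250 bases before to 50 bases after the annotated start in RefSeq, build GRCr8, on the plus strand: Ces1f at chr19:29969383-29969682, Ces1e at chr19:30005923-30006222, Ces1d at chr19:30046244-30046543, Ces1c at chr19:30099197-30099496, Ces2c at chr1:270376951-270377250 and Ces2g at chr19:49856420-49856719. Capitals mark every match, on either strand, to the motifs described after the sequences.
Ces1f: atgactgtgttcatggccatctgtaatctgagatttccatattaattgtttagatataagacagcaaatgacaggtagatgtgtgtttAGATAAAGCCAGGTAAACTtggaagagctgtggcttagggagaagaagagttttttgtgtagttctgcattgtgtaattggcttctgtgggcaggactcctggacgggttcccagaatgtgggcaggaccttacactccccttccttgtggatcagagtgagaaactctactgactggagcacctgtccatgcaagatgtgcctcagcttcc
Ces1e: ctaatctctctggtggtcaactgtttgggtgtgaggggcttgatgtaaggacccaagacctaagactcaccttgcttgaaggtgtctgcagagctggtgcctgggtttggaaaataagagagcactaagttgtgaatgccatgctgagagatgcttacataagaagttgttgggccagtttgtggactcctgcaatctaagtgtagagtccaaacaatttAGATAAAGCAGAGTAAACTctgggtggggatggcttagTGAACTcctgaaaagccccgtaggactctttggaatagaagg
Ces1d: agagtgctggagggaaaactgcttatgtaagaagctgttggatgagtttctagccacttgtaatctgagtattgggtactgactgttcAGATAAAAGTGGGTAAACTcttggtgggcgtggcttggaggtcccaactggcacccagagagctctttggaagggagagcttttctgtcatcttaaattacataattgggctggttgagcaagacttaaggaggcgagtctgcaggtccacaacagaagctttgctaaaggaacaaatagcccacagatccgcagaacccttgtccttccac
Ces1c: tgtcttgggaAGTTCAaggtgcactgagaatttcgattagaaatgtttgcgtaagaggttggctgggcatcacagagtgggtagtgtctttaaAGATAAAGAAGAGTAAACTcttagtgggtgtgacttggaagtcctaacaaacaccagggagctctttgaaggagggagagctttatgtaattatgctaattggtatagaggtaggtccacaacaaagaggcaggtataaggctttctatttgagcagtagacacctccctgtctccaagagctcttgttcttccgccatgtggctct
Ces2c: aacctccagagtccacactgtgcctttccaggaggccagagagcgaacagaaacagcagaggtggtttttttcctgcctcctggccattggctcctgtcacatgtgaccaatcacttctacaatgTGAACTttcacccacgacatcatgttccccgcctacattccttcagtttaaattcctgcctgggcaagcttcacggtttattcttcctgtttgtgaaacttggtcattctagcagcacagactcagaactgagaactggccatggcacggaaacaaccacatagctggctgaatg
Ces2g: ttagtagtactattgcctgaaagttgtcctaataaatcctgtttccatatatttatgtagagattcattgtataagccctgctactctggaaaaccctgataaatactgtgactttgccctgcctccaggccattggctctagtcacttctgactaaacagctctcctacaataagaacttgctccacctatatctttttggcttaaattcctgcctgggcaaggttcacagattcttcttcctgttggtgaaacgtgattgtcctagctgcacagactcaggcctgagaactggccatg

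The stretch in capitals in the 4 Ces1 sequences spells AGATAAANNNNNGTAAACT, where N is any base. It was found by comparing these sequences with each other after the array values were known. It occurred, on either strand, in 6 of 33469 upstream sequences of the same length, or 0.0179% of them: those of Ces1c, Ces1d, Ces1e, Ces1f and Ces1dl1 and that of an unnamed protein-coding gene on chromosome 19. It lay 162 bases before the start in Ces1d and Ces1f, 157 before it in Ces1c and 30 before it in Ces1e, each time on the strand of the gene. The upstream sequence of Ces1a, the next gene of the cluster, and those of the Ces2 members did not hold it. Nor did that of Cesl1, a Ces1-like gene called lower after DSS over both genotypes (-1.18, limma adjusted p = 0.0046). Its probe was well above background on 1 of 4 wild type DSS arrays. Of the motifs searched by plan, AGTTCA, a nuclear receptor core site, matched in 4 of the 8 members (Ces1c, Ces1e, Ces2c and Ces2h) against 14.5% of all upstream sequences. The match lay 240 bases before the start in Ces1c and 125 before it in Ces2c. In Ces1e and Ces2h it lay after the start, at bases 9 to 14 and 13 to 18. AGGTCA, another such core, matched in 1 member, Ces2h, against 16.2%. TATAAA, CAAAGTCCA and GTTAAT matched in 0 of the 8, against 14.2%, 0.391% and 7.45% of all.

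After DSS the measured Ces1 genes were lower in both genotypes, with log2 differences over both from -1.60 for Ces1f to -3.17 for Ces1e, whereas no Ces2 member was lower by a factor of 2. Ces1e showed the widest separation. In untreated wild type rats Ces1e was at -1.24, -0.50, -1.03 and 0.08, and in untreated Pirc rats at 0.11, -0.16, 0.22 and -0.64. In the DSS groups it was at -4.10, -3.65, -3.55 and -2.61 in wild type rats and at -3.63, -5.46, -3.10 and -2.40 in Pirc rats. Every DSS rat lay below every untreated rat, the untreated groups overlapped each other, and so did the DSS groups. All 4 Ces1 genes had this order within each genotype, which 8.06% of all probes had in Pirc and 4.44% in wild type rats. The difference was -2.81 (SE 0.53, n = 4 against 4) in wild type and -3.53 (SE 0.53) in Pirc rats on the log2 scale. The second Ces1e probe gave -2.11 and -2.85. With normexp background correction in place of the processed signal, the Ces1e difference in Pirc rats was -2.72.

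**Figure D1:**
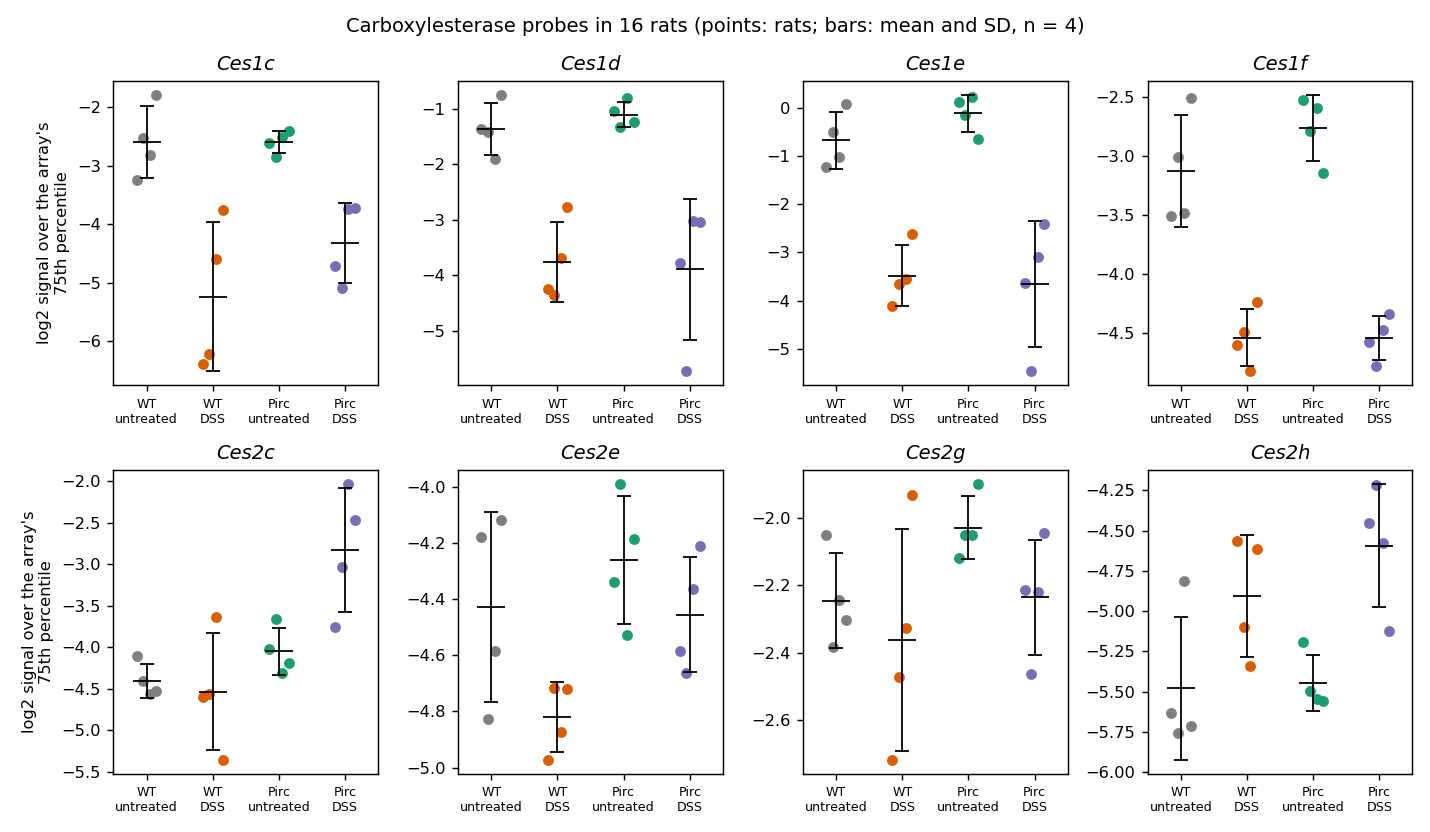
Log2 signal over the 75th percentile of the array (vertical axes, a scale of its own for each gene) for the 8 measured carboxylesterases in wild type (WT) and Pirc rats, untreated or after DSS; points are rats, and bars the mean and SD of 4. The 4 Ces1 genes lie lower in every DSS rat than in every untreated rat of the same genotype, an order that 8.06% of all probes had in Pirc and 4.44% in wild type rats; the Ces2c mean is highest in the Pirc DSS group.

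Ces1d, the enzyme long studied in rodents as triacylglycerol hydrolase, followed the same pattern. It was at -1.37, -1.43, -1.90 and -0.75 in untreated and -4.24, -4.35, -3.70 and -2.77 in DSS-treated wild type rats. In Pirc rats it was at -1.04, -1.32, -0.81 and -1.24 without and -3.78, -5.73, -3.03 and -3.03 with DSS. All 8 DSS rats lay below all 8 untreated rats, with 1 Pirc rat, rat 16, far below the other DSS rats. The difference was -2.40 (SE 0.51) in wild type and -2.79 (SE 0.51) in Pirc rats. With normexp it was -1.98 in Pirc rats.

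Ces1c, the plasma carboxylesterase of rodents, was the member whose DSS-treated rats spread most in the wild type. Its values there were -6.38, -6.21, -4.60 and -3.76, against -3.25, -2.53, -2.82 and -1.79 without DSS. The Pirc rats were at -4.72, -5.09, -3.74 and -3.73 with and -2.60, -2.85, -2.51 and -2.41 without DSS. The treated and untreated rats did not overlap in either genotype, as with the other Ces1 genes, and the untreated genotypes had almost the same mean, -2.59 ± 0.19 in Pirc and -2.60 ± 0.62 in wild type rats (SD, n = 4). The difference was -2.64 (SE 0.52) in wild type and -1.72 (SE 0.52) in Pirc rats, and -1.31 and -1.02 with normexp background correction in place of the processed signal. On the second Ces1c probe, 0 of the 4 wild type DSS arrays were well above background, which allows a bound of at least 1.88-fold lower there; it gave -2.28 in Pirc rats, where 1 of 4 DSS arrays was well above background.

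Ces1f, a triglyceride hydrolase of liver and fat, had the smallest difference of the 4 and the tightest DSS groups. It was at -4.60, -4.49, -4.83 and -4.24 in DSS-treated wild type and at -4.58, -4.78, -4.47 and -4.34 in DSS-treated Pirc rats. The untreated rats were at -3.51, -3.01, -3.48 and -2.51 in the wild type and at -2.53, -2.79, -2.59 and -3.15 in Pirc. No DSS rat reached the lowest untreated rat, and the DSS groups had the same mean, -4.54. The difference was -1.41 (SE 0.22) in wild type and -1.78 (SE 0.22) in Pirc rats. With normexp it was under a factor of 2 over both genotypes (-0.96) and in wild type rats (-0.81), where Ces1f was then not called, and -1.11 in Pirc rats.

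The same rats stood at the ends of their groups across the Ces1 genes. Pirc DSS rat 16, whose array was the dimmest of the 16, was the lowest of its group in all 4 genes, and wild type DSS rat 26 was the highest of its group in all 4. Leaving out any 1 rat kept the difference over both genotypes between -3.38 and -2.87 for Ces1e, between -2.76 and -2.29 for Ces1d, between -2.43 and -1.99 for Ces1c and between -1.66 and -1.49 for Ces1f. Within the slides, the Ces1e difference was -4.53 and -2.54 in Pirc and -3.01 and -2.61 in wild type rats, and the Ces1c difference was -2.18 and -1.27 in Pirc and -3.41 and -1.87 in wild type rats. All 4 Ces1 genes were lower after DSS on each slide in each genotype.

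The Ces2 members did not share the pattern of the Ces1 genes. Ces2g was at -2.05, -2.38, -2.24 and -2.30 in untreated and -2.72, -2.47, -2.33 and -1.93 in DSS-treated wild type rats. In Pirc rats it was at -2.12, -2.05, -2.05 and -1.90 without and -2.21, -2.46, -2.22 and -2.05 with DSS. All 4 groups overlapped, and the DSS difference was -0.12 (SE 0.16) in wild type and -0.21 (SE 0.16) in Pirc rats, with 95% intervals that stayed within a factor of 2. Ces2e ran from -4.83 to -4.12 in untreated and from -4.97 to -4.72 in DSS-treated wild type rats, and from -4.53 to -3.99 and from -4.66 to -4.21 in the Pirc groups. Its DSS difference was -0.39 (SE 0.17) in wild type and -0.20 (SE 0.17) in Pirc rats, with treated and untreated rats overlapping in both.

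Ces2h was brighter after DSS in both genotypes by less than a factor of 2. It was at -5.63, -5.75, -4.82 and -5.71 in untreated and -4.56, -5.10, -5.34 and -4.61 in DSS-treated wild type rats. The Pirc rats were at -5.19, -5.50, -5.55 and -5.56 without and -4.45, -4.21, -4.58 and -5.12 with DSS. The Pirc groups did not overlap, DSS above untreated, an order that 8.88% of all probes had, while untreated wild type rat 21 lay above 2 of the DSS-treated wild type rats. The difference was 0.57 (SE 0.25) in wild type and 0.86 (SE 0.25) in Pirc rats, and 0.30 and 0.50 with normexp.

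Ces2c, one of the rodent relatives of human CES2, the main intestinal form, stood apart in the Pirc rats. In untreated rats it was at -4.11, -4.40, -4.56 and -4.53 in the wild type and at -4.03, -3.66, -4.31 and -4.19 in Pirc. After DSS the wild type rats were at -4.59, -4.56, -3.63 and -5.35, and the Pirc rats at -3.76, -3.03, -2.03 and -2.48. The 3 highest values of the 16 rats were Pirc DSS rats 20, 24 and 16, and the 4th Pirc DSS rat, rat 12, lay below wild type DSS rat 22 and inside the range of the untreated Pirc rats. The DSS difference was 1.22 (SE 0.36) in Pirc and -0.13 (SE 0.36) in wild type rats. Within the slides it was 0.45 and 1.995 in Pirc rats and -0.32 and 0.05 in wild type rats.

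**Figure D2:**
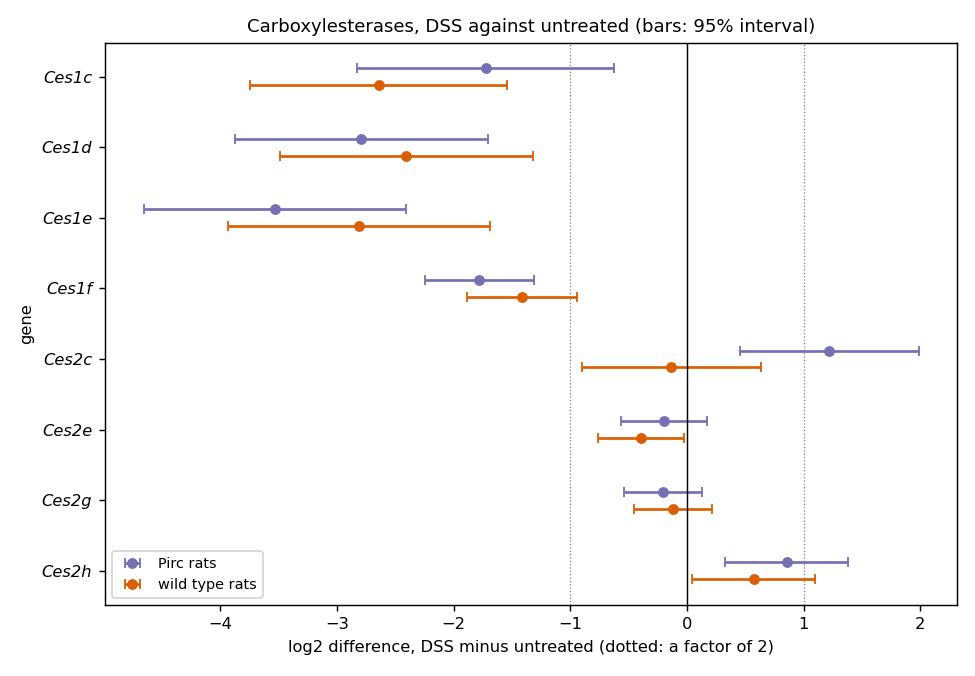
Log2 difference between DSS-treated and untreated rats (horizontal axis) for each measured carboxylesterase, in Pirc and wild type rats; points are limma estimates from 4 against 4 rats, bars 95% intervals, and dotted lines a factor of 2. The Ces1 genes lie between -3.53 and -1.41, and the Ces2 genes between -0.39 and 1.22.

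Over both genotypes 4 of the 8 members, Ces1c, Ces1d, Ces1e and Ces1f, met the call for lower after DSS, beside 0.988% of all probes, and 0 met that for higher, beside 5%. In Pirc rats the same 4 met it for lower, beside 1.95% of all probes, and Ces2c for higher, beside 5.51%. Ces2c no longer met it there after quantile normalization (1.08), with normexp (0.92), with only the groups compared, without moderation, or without Pirc rat 11, 19, 20, 23 or 24. Ces1c no longer met it in Pirc rats with a common floor, without moderation, or without Pirc rat 11, 12, 15, 16, 19 or 23. In wild type rats the 4 met it for lower, beside 0.402%, and 0 for higher, beside 2.37%. The median difference over both genotypes was -0.95 over the 8 members and 0.06 over all probes. Since the members were chosen with 2 of these falls known, nothing is read from these shares. In bulk tissue, fewer cells of a kind and less RNA in each cell cannot be told apart.

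The Pirc contrasts did not choose the members, and here they were tested. Without DSS no member differed between Pirc and wild type: the differences ran from 0.00 for Ces1c to 0.55 for Ces1e (SE 0.53), limma called 0 of the 8 members and 0% of all probes, and 0 members had an unadjusted p under 0.05, against 3103 of the 30367 probes. The intervals of Ces1c, Ces1d, Ces1e and Ces2c left room for a factor of 2, that of Ces1e running from -0.57 to 1.68 and that of Ces2c from -0.41 to 1.12. Those of Ces1f, from -0.10 to 0.83, Ces2e, Ces2g and Ces2h did not.

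In the DSS-treated rats Ces2c was 3.27-fold higher in Pirc, by 1.71 on the log2 scale (SE 0.36, 95% interval 0.95 to 2.48, limma adjusted p = 0.0061). It was the only one of the 8 members called, beside 5.47% of all probes. The groups overlapped by 1 rat each. The means were -2.82 ± 0.75 in Pirc and -4.54 ± 0.70 in wild type rats (SD, n = 4). The difference was 1.18 among the 2 against 2 rats of the first slide and 2.24 among those of the second. When only the DSS-treated rats entered the fit, the adjusted p rose to 0.055 and the call was lost, and with normexp background correction the difference shrank to 0.92 (limma adjusted p = 0.011), under a factor of 2. The same Pirc DSS rats enter the DSS difference of Ces2c in Pirc rats given above.

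The other members were not called between genotypes after DSS. Ces1c was 0.92 higher in Pirc (SE 0.52, limma adjusted p = 0.25), and without wild type DSS rat 26 the difference was 1.41 and passed (limma adjusted p = 0.048). Ces2e was higher in every Pirc DSS rat than in every wild type DSS rat, an order shared by 9.62% of all probes, but by 0.36 (SE 0.17, limma adjusted p = 0.17). The differences of Ces1d, Ces1e and Ces1f were -0.13, -0.17 and 0.00, with intervals from -1.21 to 0.95, from -1.29 to 0.95 and from -0.47 to 0.46. Those of Ces2g and Ces2h were 0.13 and 0.31.

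**Figure D3:**
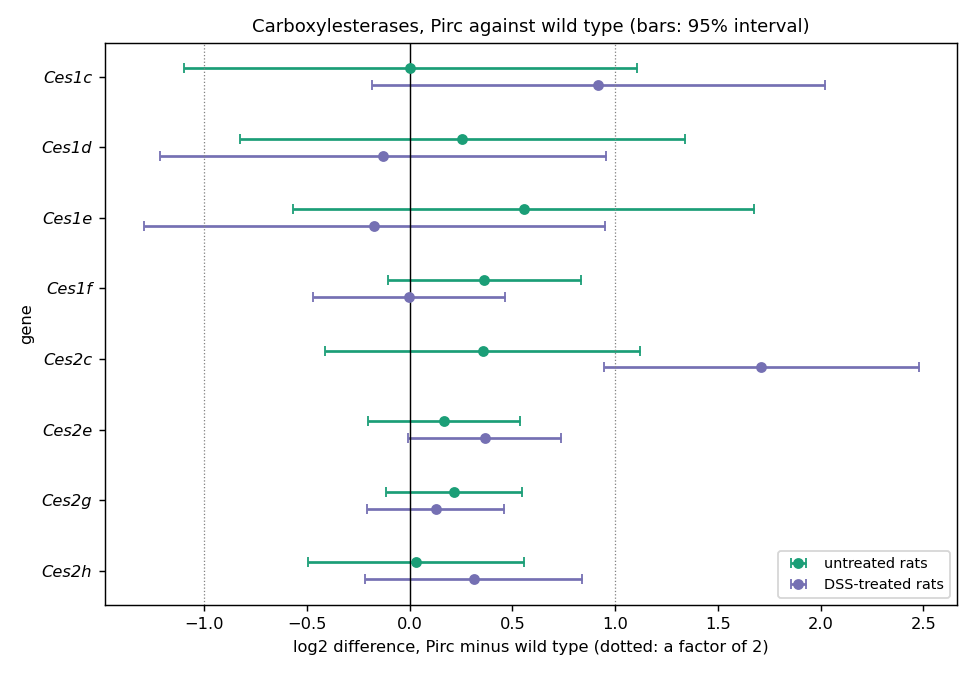
Log2 difference between Pirc and wild type rats (horizontal axis) for each measured carboxylesterase, in untreated and in DSS-treated rats; points are limma estimates from 4 against 4 rats, bars 95% intervals, and dotted lines a factor of 2. Ces2c in DSS-treated rats is the only point beyond a factor of 2, at 1.71.

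Over both treatments Ces2c was the only member called, 1.03 higher in Pirc (SE 0.25, limma adjusted p = 0.013), beside 2% of all probes. The same DSS-treated rats enter this contrast, and in untreated rats the Ces2c difference was 0.36 (SE 0.36, limma adjusted p = 0.81). Without Pirc untreated rat 15, Pirc DSS rat 20 or 24, or wild type DSS rat 26, the difference over both treatments was 0.97, 0.90, 0.98 or 0.90. It was thus under a factor of 2, with adjusted p from 0.021 to 0.030. With normexp it was 0.49 (adjusted p = 0.049) and the call was lost. The median over the 8 members was 0.19, and over all probes -0.06. Ces2e was next by p, at 0.27 (SE 0.12, limma adjusted p = 0.16).

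Whether DSS acted alike in the genotypes was tested as the difference between the DSS effects, and 0 of the 8 members were called, beside 0.0428% of all probes. For Ces2c the effect of DSS in Pirc exceeded that in wild type rats by 1.36 (SE 0.51, interval 0.27 to 2.44, limma unadjusted p = 0.018 and adjusted p = 0.36). For the Ces1 genes it differed by 0.91 (Ces1c), -0.39 (Ces1d), -0.73 (Ces1e) and -0.37 (Ces1f), with intervals as wide as -2.31 to 0.86 for Ces1e. Equal and unequal falls of the Ces1 genes are thus both within these intervals.

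The other carboxylesterase genes with a probe were named after their values were seen, and they were tested for DSS and between genotypes. Ces1dl1 is a close relative of Ces1d whose upstream sequence holds the shared stretch. It was well above background on 3 of 4 untreated Pirc arrays and on 0 of 4 after DSS, at least 1.57-fold lower. The limma adjusted p, 0.00033, belongs to the fitted difference and not to this bound. In wild type rats it was well above background on 2 untreated arrays and 0 DSS arrays, too dim for a fold. Cesl1, a further Ces1-like gene, fell by 1.65 in wild type rats (SE 0.36, limma adjusted p = 0.019), where 1 of 4 DSS arrays was well above background, and stood at -0.70 in Pirc rats (SE 0.36, adjusted p = 0.23). Ces2j fell in both genotypes by less than a factor of 2, -0.72 in Pirc (limma adjusted p = 0.0036) and -0.56 in wild type rats (adjusted p = 0.042). Ces2b was at -0.36 over both genotypes (SE 0.20, limma adjusted p = 0.26). Ces5a was higher after DSS in Pirc rats by 1.31 (limma adjusted p = 0.0064), with 2 of 4 untreated arrays well above background. Ces1a was well above background on 4 of 16 arrays and Ces4a on 0. Between genotypes after DSS, Cesl1 was called, 1.13 higher in Pirc (SE 0.36, limma adjusted p = 0.039), with 1 of 4 wild type DSS arrays well above background. Over both treatments Ces2j was 0.41 higher in Pirc (SE 0.10, limma adjusted p = 0.012), under a factor of 2.

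In RefSeq the cluster runs Ces1f, Ces1e, Ces1d, Ces1c, Ces1a, followed by Slc6a2, Lpcat2, Capns2, Mmp2, Irx6 and Irx5. The Ces1a probe was well above background on 1 of 4 untreated arrays in each genotype and could show no fall of the size seen in its neighbours. Slc6a2, the noradrenaline transporter gene, fell by 0.58 over both genotypes (SE 0.16, limma adjusted p = 0.018). It fell by 0.94 in wild type rats (SE 0.22, adjusted p = 0.030) and stood at -0.23 in Pirc rats (SE 0.22, adjusted p = 0.59). Farther along, Mmp2, which encodes a collagen-cleaving protease, rose by 2.71 over both genotypes (SE 0.30, limma adjusted p = 4.0e-05), and Capns2, a calpain subunit gene well above background on 10 of 16 arrays, rose by 3.36 (SE 0.75, adjusted p = 0.0062). Lpcat2 had no probe.

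**Figure D4:**
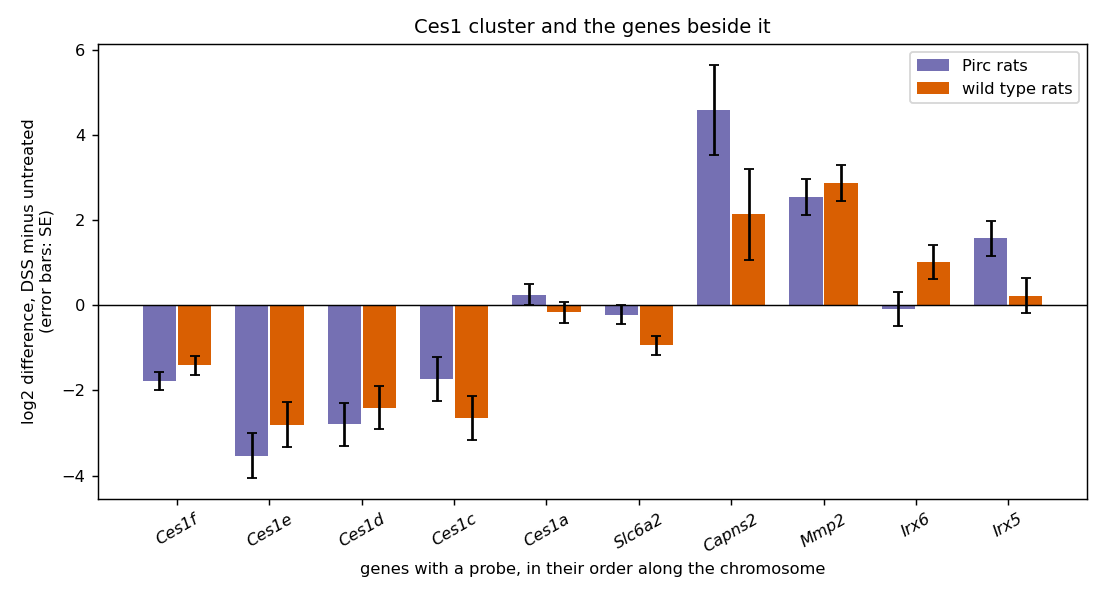
Log2 difference between DSS-treated and untreated rats (vertical axis) for the genes with a probe in and beside the Ces1 cluster, in chromosome order, in Pirc and wild type rats; error bars are SE from 4 against 4 rats. The bars are lowest for Ces1e, at -3.53 and -2.81, and turn upward at Capns2 and Mmp2; the Ces1a probe was well above background on 4 of 16 arrays only.

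Among the genes whose log2 values ran most like those of Ces1e over the 16 arrays, out of 9965 genes with signal on every array, were Whrn (Pearson r = 0.954), P2rx3 (0.953), Spice1 (0.943), Fbp1 (0.942) and Nfix (0.940). For Ces1d they were Whrn (0.947), P2rx3 (0.944), Fbp1 (0.933), Klk1c9 (0.919) and Nfix (0.909). Fbp1 encodes the gluconeogenic fructose bisphosphatase and Nfix a transcription factor. The 16 points share their treatment groups, so such a correlation holds the DSS difference itself: the DSS difference over both genotypes was -1.55 for Fbp1 and -1.40 for Whrn and P2rx3. For Ces2g, whose groups overlapped, the nearest was Ogt, which encodes the enzyme that attaches GlcNAc to proteins (r = 0.879), then Prpf38b (0.857), Atl2 (0.850), Nt5dc1 (0.846) and Chst9 (0.833).

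Of the other esterases and lipid hydrolases, 25 were measured, of which 1 was called higher (Ces5a) and 1 lower (Aadac) over both genotypes, with a median of -0.20 beside 0.06 over all probes. Aadac, another microsomal esterase that acts on drugs and lipids, fell by 3.36 in Pirc rats (SE 0.40, limma adjusted p = 0.00016) and was well above background on 3 of 4 DSS arrays there. In wild type rats it was well above background on 0 of 4 DSS arrays and at least 5.73-fold lower (limma adjusted p = 0.00071 for the fitted difference, not for the bound). Of 27 measured regulators of carboxylesterase transcription, 0 were called over both genotypes, where 8 fell and 1 rose by less than a factor of 2, and 4 were called lower in Pirc rats. These were Nr1i3, which encodes the xenobiotic receptor CAR (-1.33, limma adjusted p = 0.0050), Nr1h4, the bile acid receptor FXR (-1.21, adjusted p = 0.013), Ppargc1a, a coactivator of oxidative genes (-1.52, adjusted p = 0.0029), and Nr5a2, the receptor LRH-1 (-1.17, adjusted p = 0.014). In wild type rats 0 of the 27 passed limma's adjusted threshold, and 5 had an unadjusted p under 0.05. Nr1i2, which encodes the receptor PXR, was at -0.31 over both genotypes (SE 0.16, limma adjusted p = 0.21) and Hnf4a at -0.17 (SE 0.12, adjusted p = 0.42).

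Of 26 measured genes of triglyceride and lipid handling, 3 were called higher and 1 lower over both genotypes. Dgat2, which makes triglyceride from diglyceride, rose by 2.30 (SE 0.26, limma adjusted p = 4.3e-05), Cd36, a fatty acid transporter, by 2.02 (SE 0.24, adjusted p = 7.1e-05) and Mogat2, a monoacylglycerol acyltransferase, by 1.31 (SE 0.19, adjusted p = 0.00025). The probe that was lower, of Mttp, was well above background on 0 arrays. Of 32 measured genes of other drug metabolism and transport, 1 was called higher (Cyp1a1) and 1 lower (Sult1a1) over both genotypes, with a median of -0.12. Sult1a1, a phenol sulfotransferase, fell by 1.31 (SE 0.41, limma adjusted p = 0.040). Cyp1a1, the monooxygenase induced through the Ah receptor, was well above background on 0 of 4 untreated and 4 of 4 DSS-treated Pirc arrays. It was at least 3.17-fold higher there (limma adjusted p = 0.014 for the fitted difference, not for the bound).

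Markers of other cells moved with DSS beside the Ces1 genes. Of the stratified squamous epithelium, 8 of 9 measured markers were called higher over both genotypes. Their summed signal ran from -2.06 to -0.19 in untreated rats, from 4.04 to 6.60 in Pirc DSS rats and from -2.003 to 5.18 in wild type DSS rats. Fibroblast and matrix markers were called higher in 9 of 9, with a summed signal of 0.48 to 1.44 in untreated and 1.39 to 3.90 in DSS-treated rats. Of the neutrophil and myeloid markers 8 of 11 were called higher, and 9 passed the adjusted threshold upward. Their summed signal ran from 0.995 to 1.78 in untreated and 2.73 to 5.66 in DSS-treated rats. Of the lymphocyte markers 4 of 9 were called higher, and of the smooth muscle markers 1 of 9 was called higher (Tagln) and 1 lower (Des). Their part in the Ces1 differences was not tested.

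In wild type DSS rat 26 the summed squamous signal was -2.003, inside the untreated range, and in all 4 Ces1 genes this rat was the highest of the wild type DSS group and below every untreated wild type rat. Its fibroblast and myeloid sums, 1.62 and 2.73, were above those of every untreated wild type rat. Its smooth muscle, lymphocyte and adipocyte sums, 4.16, 0.67 and 3.24, were the highest of the 16 rats. This is 1 rat, and the part of any tissue in its Ces1 values was not tested. Of the epithelial markers limma called 0 of 14 in either direction over both genotypes (4 at an unadjusted p under 0.05), with a median of 0.11, and their summed signal ran from 9.48 to 9.84 in untreated and 9.58 to 10.07 in DSS-treated rats. In Pirc rats Epcam, the epithelial adhesion molecule, fell by 0.42 (SE 0.11, limma adjusted p = 0.021) and Cdh17, an intestinal cadherin, rose by 0.71 (SE 0.16, adjusted p = 0.0075), both by less than a factor of 2. Of 25 absorptive colonocyte markers 1 was called lower over both genotypes (Anpep, an aminopeptidase, by 1.78, SE 0.23, limma adjusted p = 0.00011), with a median of -0.22, which was -0.49 in Pirc and 0.09 in wild type rats. In Pirc rats 3 were called lower, Anpep (-1.88), Slc26a3, the chloride and bicarbonate exchanger (-1.72, limma adjusted p = 0.0027), and Mep1a, a brush border protease (-1.45, adjusted p = 0.0011), and 1 higher, Ceacam1 (1.502); their part in the Ces1 differences was not tested. Of 8 goblet cell markers, Clca1 fell by 1.19 (limma) and 7 were not called. Of 12 hepatocyte markers limma called 0 over both genotypes (2 at an unadjusted p under 0.05). There 1 passed the adjusted threshold, lower by less than a factor of 2, and in wild type rats 1 was called lower. The summed signal of the 12 ran from 3.04 to 4.11 in untreated and 1.80 to 2.93 in DSS-treated wild type rats. In Pirc rats it ran from 3.43 to 3.92 without and 2.92 to 3.36 with DSS. A sum weighs the brightest markers most, and the mean log2 value of the 12 overlapped between treated and untreated rats. This mean ran from -6.50 to -6.24 in untreated and -6.50 to -6.01 in DSS-treated wild type rats. In Pirc rats the mean ran from -6.97 to -6.08 without and -6.65 to -5.98 with DSS. The part of these markers in the Ces1 differences was not tested. Among 8 adipocyte markers Adipoq, Cfd and Fabp4 rose by 1.41, 2.08 and 4.69 and Pck1 fell by 1.35. Of 11 measured markers of small intestinal enterocytes 2 were called lower, Fabp6 with a difference of -1.72 and Enpep with -2.08, and 0 higher. The median of the list was 0.25. Its summed signal ran from -0.19 to 1.37 in untreated and 1.37 to 2.79 in DSS-treated wild type rats. In Pirc rats it ran from -0.06 to 0.40 without and -1.18 to 3.12 with DSS.

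**Figure D5:**
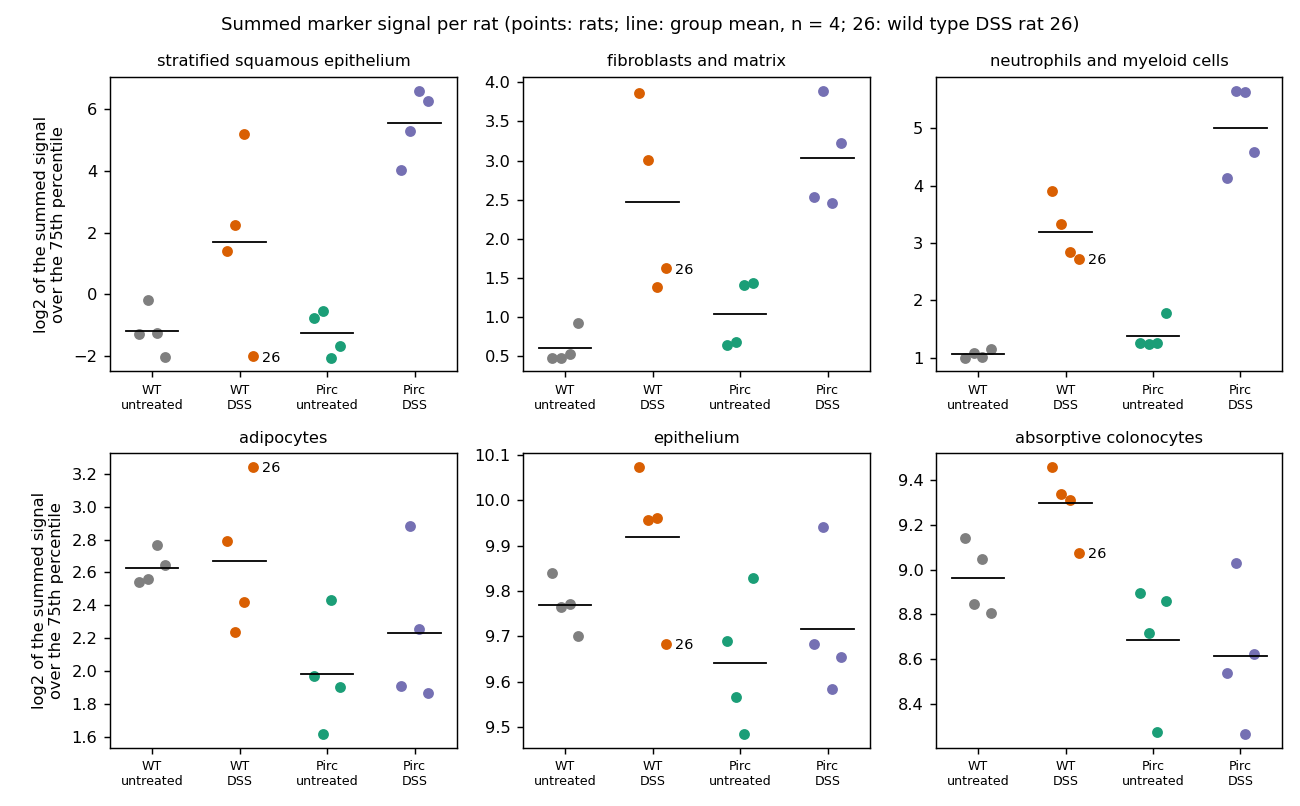
Log2 of the summed signal over the 75th percentile (vertical axes, a scale of its own for each list) for 6 marker lists in wild type (WT) and Pirc rats, untreated or after DSS; points are rats, the line is the mean of 4, and 26 marks wild type DSS rat 26. Rat 26 lies at -2.003 for squamous markers, among the untreated rats, and at 2.73 for myeloid markers, above them. For adipocyte markers it is the highest of the 16 rats, at 3.24.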

How the data were processed

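Total RNA of normal distal colon was labelled with Cy3 and hybridised to 1-colour Agilent rat arrays, 1 array per rat, and scanned. The deposited files hold the intensity of each spot from Agilent Feature Extraction 10.7.3.1, background-subtracted by the authors' scanner software, and the submitters' processing notes name Partek for their own later steps. For untreated animals the study's methods describe the normal tissue as epithelium taken from the luminal surface; for DSS-treated rats this detail was not given in the sources used here. Here, outlier-flagged spots were left out, log2 of the processed signal minus the array's 75th percentile was taken, and spots of a probe were averaged; 25 probe values had every spot flagged. Probes (30367, of 58717 non-control spots) were named through RefSeq accessions (GRCr8): 18006 matched 15159 symbols. A gene was represented by its probe with the highest mean. The 4 group means were fitted with limma 3.58.1 in R 4.3.3 over all 16 arrays, with Benjamini-Hochberg adjustment over all probes. The fit was tested on simulated data. Replicates are separate rats by the labels, and their small number sets the precision.

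The members and lists were chosen with earlier results of these data known. Named were all members with a probe, list genes called for DSS over both genotypes (at most 5 a list) and defining markers, the nearest 5 genes by correlation, and, after their values were seen, the other carboxylesterases, the neighbours of the cluster, and regulators called in Pirc rats. Alternatives were quantile normalization, normexp with an offset of 50, a filter on dim probes (4 arrays), a common floor, slide, array row or (after seeing the data) both together as a block, flagged spots kept, only the groups compared, no moderation, no minimum change, averaged probes, and each rat left out. Upstream sequences came from a RefSeq table. Probe and protein sequences were not used here, and whether probes cross-hybridise between family members was not tested.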

Additional observations from a re-analysis of the deposited data

Results flagged for a closer look

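In 2 groups of 4 rats a Ces2h value stood far from the others, by Dixon's gap criterion for 4 samples. Untreated Pirc rat 11 was at -5.19 while the other 3 lay between -5.56 and -5.50, and untreated wild type rat 21 was at -4.82 while the other 3 lay between -5.75 and -5.63. Among the 32 groups checked, 8 members in 4 groups, chance gives about 1.6 such values.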

How the results depend on the processing

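Array column and group cannot be told apart, and with 4 rats a group the intervals of Ces1c, Ces1d, Ces1e and Ces2c between untreated genotypes left room for a factor of 2. Normexp shifted the all-probe median from -0.06 to -0.18 for Pirc over both treatments, and from -0.02 to -0.18 in untreated rats; it left 0 members called for Pirc over both treatments and 0 in DSS-treated rats, as did the fit of only the groups compared for the latter, 0. Quantile normalization moved that median for DSS over both genotypes from 0.06 to -0.06. Normexp also gave 3 of 4 calls for DSS over both genotypes and in wild type rats. Without moderation 3 members, Ces1d, Ces1e and Ces1f, met the call for DSS in Pirc rats, against 5. Leaving out each rat in turn gave 3 to 5 calls for DSS in Pirc rats (3 without untreated Pirc rat 11, 19 or 23), 0 to 1 for Pirc over both treatments and 1 to 2 in DSS-treated rats. The other alternatives kept these counts within a factor of 1.5; the cause of the changes was not tested.

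Some differences between genotypes that were not called changed sign. In untreated rats Ces1c was -0.0166 after quantile normalization and -0.0562 after normexp, Ces2h -0.0173 and -0.21, and Ces2e -0.0217 after normexp. Ces2h was -0.10 after normexp over both treatments and -0.00276 in DSS-treated rats. Leaving out single rats spanned 0 for Ces1c (-0.21 to 0.27) and Ces2h (-0.0610 to 0.25) in untreated rats, for Ces1d (-0.42 to 0.48), Ces1e (-0.59 to 0.43) and Ces1f (-0.10 to 0.10) in DSS-treated rats, for Ces1d (-0.0800 to 0.37) and Ces1e (-0.0158 to 0.49) over both treatments, and for the difference between DSS effects of Ces1d (-0.67 to 0.23) and Ces2g (-0.21 to 0.0545). Rats of different groups share no number in the labels. Slide and array row together, 4 sets with 1 rat of every group, entered as a block in an alternative chosen after seeing the data, which kept all 7 counts.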
